A study of Homo sapiens with 4 samples.

Results

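The DNA repair and checkpoint genes described here are 39 genes of homologous recombination, the Fanconi anaemia pathway, mismatch repair and the DNA damage checkpoint. They are a list of gene names drawn up with earlier results of these data known. Of the 39, 34 were measured by at least 1 probe set annotated with that gene alone, among 19775 genes measured in this way on the array. Of the 34, 33 had a probe set bright enough to pass a filter on dim probe sets, as did 10505 genes in all. BRCA2, RBBP8, FANCA and FANCD2 had no probe set of their name in the annotation used and were not analysed here, and PMS2 was represented only by probe sets shared with PMS2CL.

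RCM-1, a human cell line from a well-differentiated rectal adenocarcinoma, was treated near confluency with methylthioacetic acid (MTA), a small sulphur compound that makes these cells form domes, which are raised areas of the cell sheet. MTA was given at 1 mM for 6, 12 or 18 h, and the cells then stayed in medium with the vehicle, 0.1% acetonitrile, until harvest at 24 h, so that the 6, 12 and 18 h cells had spent 18, 12 and 6 h without MTA. The control was the 0 h culture, given 0.1% acetonitrile alone, and the sources leave unstated whether its cells were likewise harvested at 24 h. Total RNA of each culture was measured on 1 Affymetrix U133 Plus 2.0 array, which makes 4 arrays with no replicates, all of 1 cell line.

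Homologous recombination repairs double-strand breaks by copying the sister chromatid. The Fanconi anaemia pathway unhooks cross-links between DNA strands and hands the broken ends to recombination, and mismatch repair removes bases that the replication machinery has put in wrongly. The checkpoint kinases ATM and ATR sense breaks and stalled forks and, through CHEK2 and CHEK1, hold the cell cycle. Many of these genes are transcribed most in cells that are about to copy their DNA, under factors of the E2F family, and mismatch repair is best known in the large bowel because its loss causes hereditary colorectal cancer.

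Stretches of 100 bases around the start site are shown for 6 members, because they hold letters that such factors read and lie in front of genes whose expression is given here. All are from the RefSeq promoter table of GRCh38.p14, which holds windows of 250 bases before to 50 bases after each start, and all are printed on the strand of the gene. They are the reference sequence and not that of RCM-1. In the first 4, capitals mark a match to the E2F letters TTTCCCGC, TTTGGCGC or TTTCGCGC on either strand.
MSH6, chr2:47783056-47783155, plus strand: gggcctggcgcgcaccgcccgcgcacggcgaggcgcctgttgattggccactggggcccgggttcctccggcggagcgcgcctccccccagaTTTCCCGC
EXO1, chr1:241848116-241848215, plus strand: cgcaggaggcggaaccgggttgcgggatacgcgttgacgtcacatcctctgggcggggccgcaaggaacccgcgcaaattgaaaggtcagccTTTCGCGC
XRCC2, chr7:152676113-152676212, minus strand: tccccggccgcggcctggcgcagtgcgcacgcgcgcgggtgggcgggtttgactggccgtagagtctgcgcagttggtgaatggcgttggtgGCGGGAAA
FANCC, chr9:95317710-95317809, minus strand: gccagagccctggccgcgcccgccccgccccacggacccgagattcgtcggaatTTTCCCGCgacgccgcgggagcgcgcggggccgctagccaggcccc
In the other 2, capitals mark the letters CCAAT, or ATTGG on the opposite strand, which the factor NF-Y reads.
BRIP1, chr17:61863529-61863628, minus strand: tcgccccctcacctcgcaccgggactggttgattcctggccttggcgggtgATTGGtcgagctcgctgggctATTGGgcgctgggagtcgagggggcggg
CHEK1, chr11:125626256-125626355, plus strand: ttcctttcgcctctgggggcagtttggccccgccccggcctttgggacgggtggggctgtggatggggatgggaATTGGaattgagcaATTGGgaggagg

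Of the 39 members, 35 had at least 1 promoter window in the table, 51 windows in all. The E2F letters were present in 5 of the 51 windows (9.8%), those of EXO1, FANCC, FANCD2, MSH6 and XRCC2, against 2.74% of all 35116 windows in the table. CCAAT was present on either strand in 26 of the 51 windows (51.0%), against 34.6% of all windows, and the letters TTTGAA of the cell-cycle element CHR in 6 (11.8%), against 15.2% of all windows. The start-site windows of BARD1, ATR and RAD1, 3 genes whose signals were low at 18 h, held none of these letters. In the members' windows no E2F match overlapped a match to CCAAT or TTTGAA. A match is a description of the letters and not of a bound factor, and windows of 1 gene can overlap one another.

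All values are MAS5 signals, which are array intensities on a linear scale, or the log2 ratio of such a signal to that of the same probe set at 0 h, so that −1 stands for a signal 2-fold lower than at 0 h. Each gene is given by its brightest probe set, judged by the mean log2 signal of all 4 arrays. All 3 ratios share the 1 array of 0 h. With 1 array per time there is no test and no p-value, and precision is limited by having 4 arrays. The only error at hand is the disagreement of probe sets of the same gene. For the 2 brightest probe sets that passed, taken over 4676 genes, the SD of their difference in log2 ratio was 0.479 at 18 h (median absolute difference 0.246), 0.408 at 6 h and 0.421 at 12 h. This covers measurement on the same arrays and not the variation between cultures.

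The arrays as a whole differed in level. With the deposited scaling, genes that passed had median log2 ratios of 0.11, −0.28 and −0.47 at 6, 12 and 18 h. The hybridization controls, added to every array, had mean log2 ratios of 0.02, −0.27 and −0.05 at 6, 12 and 18 h, and the poly-A controls 0.20, 0.03 and −0.25. The 3′ probe sets of GAPDH gave 1.44 to 1.64 times the signal of its 5′ ones over the 4 arrays, and those of ACTB 4.76 to 6.45 times. All 11 colorectal epithelial markers were above the filter, with a summed signal of 60340, 59350, 50680 and 42350 at 0, 6, 12 and 18 h. Of 11 measured markers of stromal, endothelial and immune cells, 9 or 10 lay below the lowest mean signal kept (33.97) on each array, and their summed signal was 139, 283, 231 and 266. The marker that differed most was the collagen chain COL1A1, with signals of 7.64, 153, 115 and 144 at 0, 6, 12 and 18 h. The part of these differences in the values below was not tested.

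At 18 h of MTA the repair and checkpoint genes as a group were lower than at 0 h. Among the lowest were the mismatch repair factors MSH6 and EXO1, the BRCA1 partner BARD1, the checkpoint clamp subunit RAD1 and the kinase ATR. At 6, 12 and 18 h the 34 members had median log2 ratios of 0.14, −0.37 and −0.71, against 0.14, −0.21 and −0.32 over all 19775 genes. For the 33 members that passed, the median at 18 h was −0.71, against −0.47 over the 10505 genes that passed. At 18 h, 33 of the 34 members (97.1%) were below 0, RAD17 being the exception, against 64.2% of all genes. Among the members that passed it was 32 of 33, against 78.3% of the genes that passed, so most genes of the array shared this sign. Of the 34 members, 24 lay below the median of the genes that passed, against 8418 of all 19775 genes. Among those that passed it was 23 of 33 members, against 5252 of 10505 genes. RNA came from whole cultures, in which fewer cells of a kind, such as cells in S phase, and less RNA per cell cannot be told apart.

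**Figure D1:**
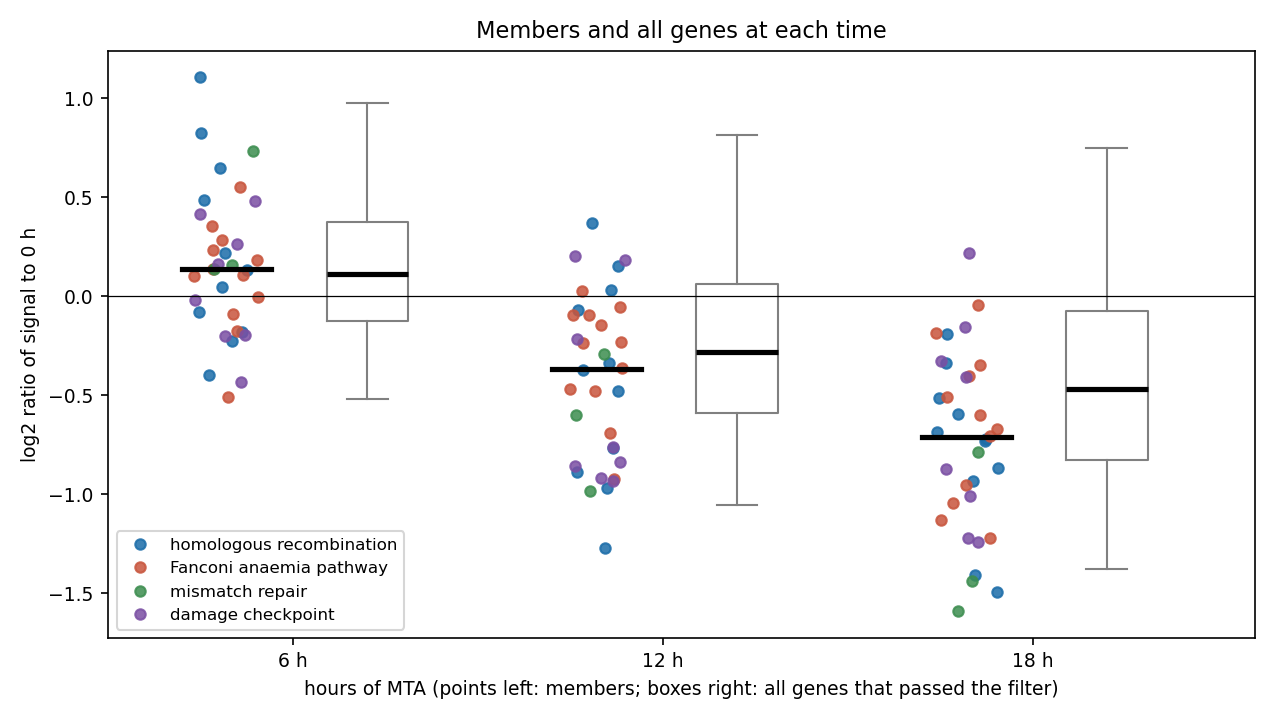
Log2 ratio of signal to 0 h (vertical axis) at 6, 12 and 18 h of MTA, with 1 point for each of the 34 measured members, coloured by role, left of a box for the 10505 genes that passed the filter on dim probe sets. Black bars are medians, boxes span the quartiles and whiskers the percentiles 5 to 95. The members' median was 0.14 at 6 h and −0.71 at 18 h, and that of all genes that passed 0.11 and −0.47.

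A log2 ratio below −1 at 18 h was seen for 10 of the 34 members (29.4%), against 18.8% of all genes. Among the members that passed it was 9 of 33 (27.3%), against 15.8% of the genes that passed. The 10 were MSH6, BARD1, EXO1, XRCC3, RAD1, ATR, PALB2, BRIP1, USP1 and CHEK1, of which XRCC3 was too dim to pass. A further 14 members had a ratio between −1 and −0.5, and 9 a ratio between −0.5 and 0. Below −1.5 there was 1 of 34 members, MSH6, against 8.70% of all genes, and among those that passed 1 of 33, against 3.19%. No member was above 1, against 14.1% of all genes.

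The scaling of the arrays set how many members passed −1. The number below −1 at 18 h was 10 of 34 as deposited, 8 with scaling to the hybridization controls, 4 with the poly-A controls, 2 with median centring or quantile normalization and 1 with division by the trimmed mean. Of the genes that passed, 15.8% were below −1 and 3.15% above 1 as deposited, against 3.74% and 7.31% with median centring. The median of the 33 members that passed lay between −0.71 and −0.19 over the 6 scalings. With quantile normalization it was again 24 of the 34 members that lay below the median of the genes that passed. The other scalings cannot change that count, which as deposited stood against 8418 of 19775 genes. The signs of 11 members (ATM, BLM, CHEK2, FANCB, FANCE, FANCF, FANCI, FANCM, RAD50, RAD54B and RAD9A) at 18 h turned with at least 1 scaling. Dividing an array by 1 number leaves the order of the members as it is, and with quantile normalization XRCC3 (−1.32), EXO1 and MSH6 (−0.99) were the lowest.

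At the earlier times few members were beyond 1. At 12 h, 1 of 34 members (XRCC3) was below −1, against 13.8% of all genes, and none of the 33 that passed, against 6.29%. At 6 h no member was below −1, against 8.88% of all genes and 0.476% of those that passed. In the other direction, 1 of 34 members (XRCC2) was above 1 at 6 h, against 16.1% of all genes, and none at 12 h, against 13.8%. The signal was highest at 6 h for 21 of the 34 members, against 43.2% of all genes and 53.1% of those that passed. It was lowest at 18 h for 28 of 34, against 46.2% and 64.4%. Above their 0 h signal at 6 h and below it at 18 h were 21 of 34, against 31.0% of all genes and 41.5% of those that passed. This course was thus also common on the array as a whole. A longer exposure went with a shorter time after removal, so the hours of MTA and the hours without it cannot be told apart.

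**Figure D2:**
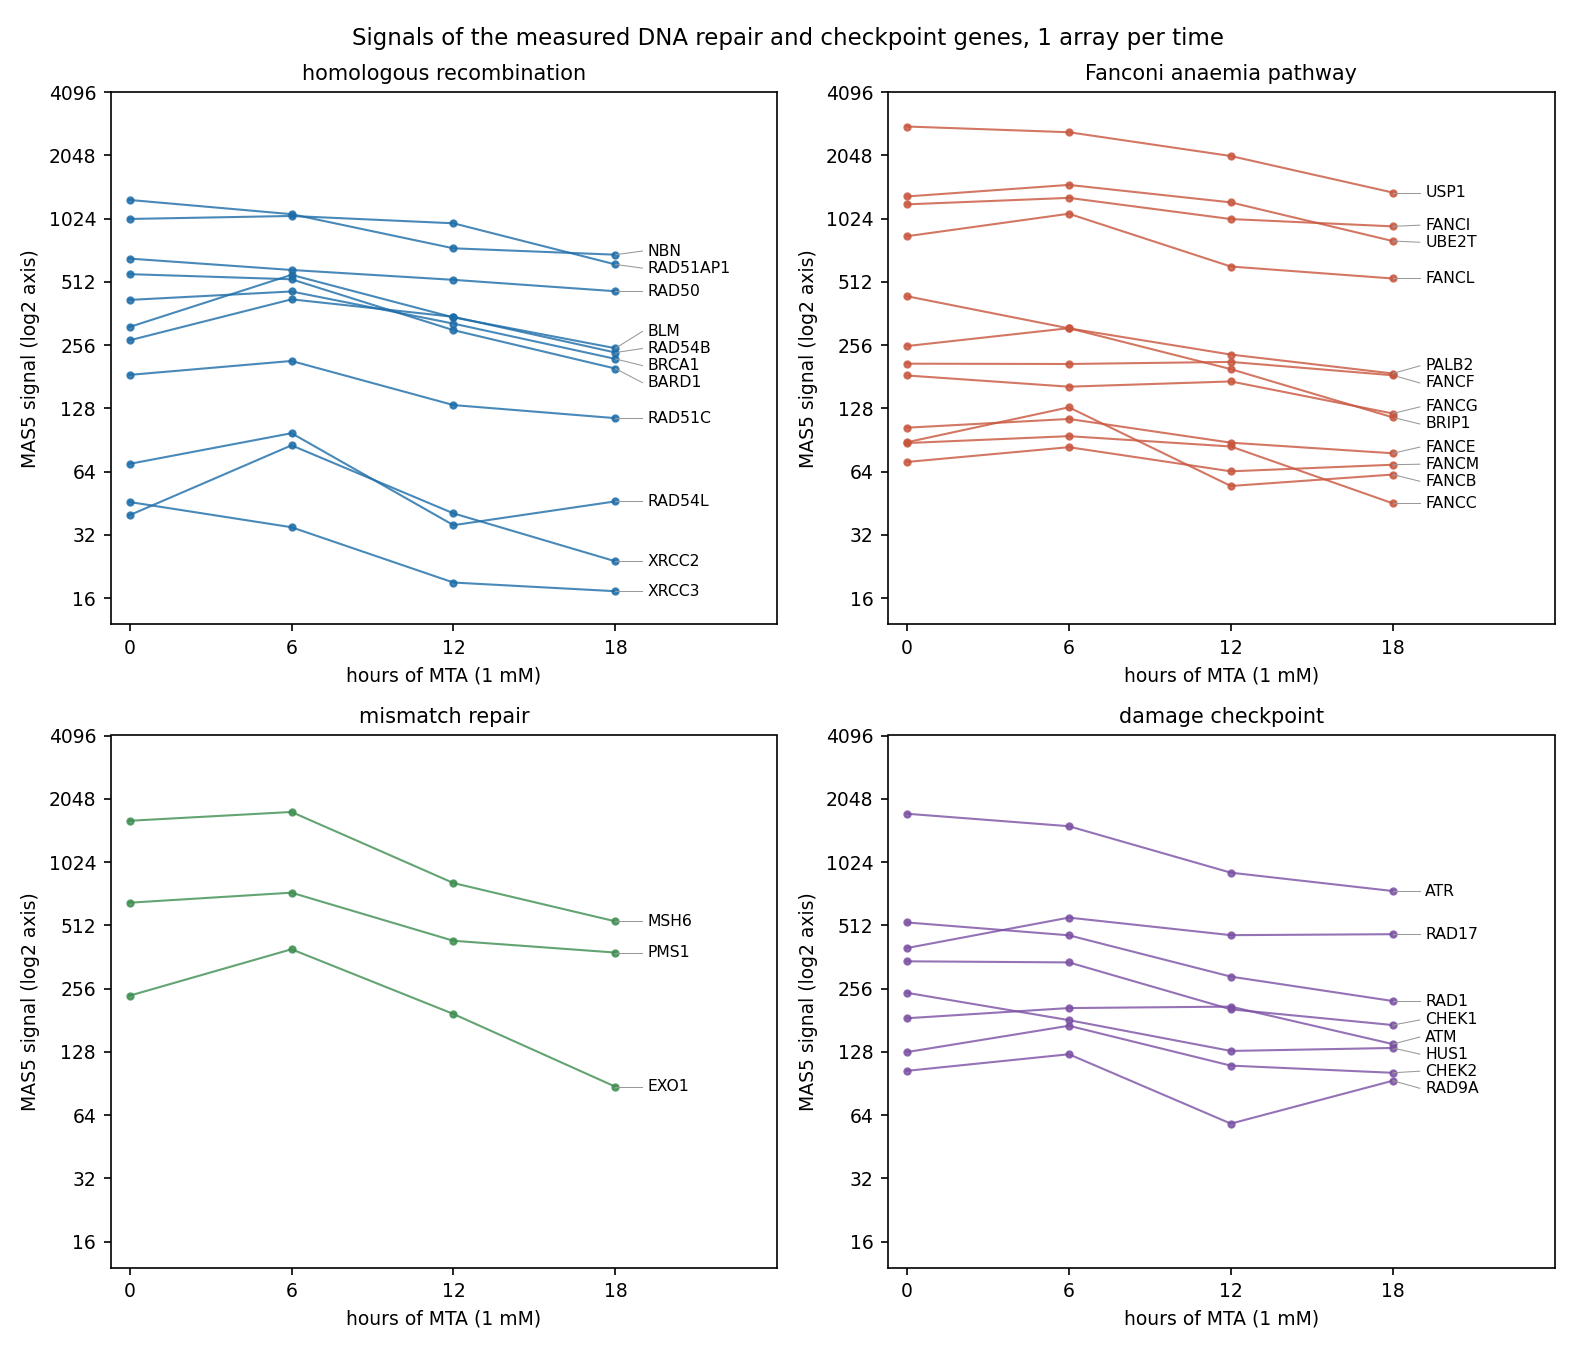
MAS5 signal (vertical axis, log2 scale) of the brightest probe set of each of the 34 measured members at 0, 6, 12 and 18 h of MTA, in 1 panel for each role, with 1 array per time. MSH6 was at 535 at 18 h, against 1609 at 0 h, while RAD17 was at 464 at 18 h, against 399 at 0 h.

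Mismatch repair had a median of −1.44 at 18 h over the 3 measured members, or −0.53 with the mean of all probe sets of a gene. Outside the members, the mismatch repair genes MSH3 and MLH3 had log2 ratios of −0.48 and −0.13 at 18 h. MSH6, which recognises single mispaired bases, had signals of 1609, 1772, 813 and 535 at 0, 6, 12 and 18 h. Its signal was lower on the 12 h array and lowest on the 18 h array, 3.01-fold below 0 h (log2 ratio −1.59). A second probe set that passed gave 179, 142, 101 and 67.9, a log2 ratio of −1.40. Its remaining pair of probe sets had signals under 7 on every array and log2 ratios of 2.59 and −1.72.

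EXO1, the exonuclease that removes the strand with the mismatch and also trims broken ends, had signals of 237, 394, 194 and 87.3 at 0, 6, 12 and 18 h. The 6 h signal was above and the 18 h signal below that of 0 h, with log2 ratios of 0.73 and −1.44, by its 1 probe set. PMS1, which has a minor part in mismatch repair, had signals of 656, 732, 432 and 379.7, and thus lower ones at 12 and 18 h (log2 ratios −0.60 and −0.79). Its other 4 probe sets were too dim to pass and ran from −1.48 to 6.12 at 18 h, the highest with a signal of 14.2 at 18 h against 0.204 at 0 h. PMS2, an endonuclease of mismatch repair, shares its probe sets with the pseudogene PMS2CL, so their signals cannot be assigned to it. One of the shared pair gave 163, 118, 82.1 and 70.7 at 0, 6, 12 and 18 h and the other 110.3, 95.2, 109 and 60.2, log2 ratios of −1.20 and −0.87 at 18 h. Both were lowest on the 18 h array.

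The 8 checkpoint genes had medians of 0.07, −0.80 and −0.64 at 6, 12 and 18 h. At 18 h 3 of them, RAD1, ATR and CHEK1, were below −1 (37.5%, against 18.8% of all genes and 15.8% of those that passed). With median centring none of these was below −1 (−0.79, −0.77 and −0.56). ATR, the kinase that answers to single-stranded DNA at stalled forks, had signals of 1738, 1516, 911 and 745 at 0, 6, 12 and 18 h. Its second probe set gave 741, 595, 365 and 255. Both decreased from array to array, to log2 ratios of −1.22 and −1.54 at 18 h, while a probe set too dim to pass had −0.62. CHEK1, the kinase that ATR activates, had signals of 345, 341, 204 and 172, level at 6 h and lower at 12 and 18 h. Its 3 probe sets that passed had log2 ratios of −1.01, −1.15 and −0.94 at 18 h, and a dim one 0.19.

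RAD1, RAD9A and HUS1 form the ring-shaped clamp that is loaded at damaged DNA and helps to switch on ATR, and they did not share 1 course. RAD1 had signals of 528, 459, 292 and 223 at 0, 6, 12 and 18 h. All 5 of its probe sets passed and lay between −1.27 and −1.08 at 18 h, so that each alone would place the gene below −1. HUS1 had signals of 244, 181, 129 and 133.5, lower at each time of MTA than at 0 h, with log2 ratios at 18 h of −0.87 and −1.04 for the pair of probe sets that passed. RAD9A had signals of 104, 125, 58.3 and 93.2, low on the 12 h array alone, with a log2 ratio of −0.84 at 12 h and −0.16 at 18 h. A probe set that RAD9A shares with another locus had a log2 ratio of 0.51 at 18 h.

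RAD17, which loads this clamp, was the 1 member above its 0 h signal at 18 h. Its signals were 399, 557, 459.5 and 464 at 0, 6, 12 and 18 h, and its 3 probe sets had log2 ratios of 0.22, −0.02 and 0.29 at 18 h. Those ratios lie within the SD between probe sets. ATM, the kinase for double-strand breaks, had signals of 185, 207, 210.0 and 139, level up to 12 h and lower at 18 h, with a log2 ratio of −0.41 against 0.12 in its other probe set that passed. The 4 probe sets of ATM that were too dim lay between −4.06 and 0.13. CHEK2, the kinase that ATM activates, had a log2 ratio of −0.33 at 18 h.

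The 11 measured genes of homologous recombination had medians of 0.13, −0.37 and −0.72 at 6, 12 and 18 h. Below −1 at 18 h were 2 of them (18.2%, against 18.8% of all genes). Of the 10 that passed it was 1 (10.0%, against 15.8% of the genes that passed). BARD1, which forms with BRCA1 the ubiquitin ligase that acts at breaks, had signals of 557, 526, 301 and 198 at 0, 6, 12 and 18 h. Its 3 probe sets all passed and had log2 ratios of −1.49, −1.61 and −1.89 at 18 h, and each was lower at 12 h and lowest at 18 h. BRCA1, the tumour suppressor itself, had signals of 419.7, 460.4, 324 and 219.9, a log2 ratio of −0.93 at 18 h. A second BRCA1 probe set went the other way, with signals of 23.8, 46.1, 46.7 and 34.1 and a log2 ratio of 0.52. Its mean signal of 36.4 was just above the lowest kept, and the difference of 1.45 between the pair was the largest between probe sets of a member that passed.

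NBN and RAD50 belong to the complex that first binds a double-strand break. NBN had signals of 1255, 1074, 739 and 689 at 0, 6, 12 and 18 h. Its 4 probe sets that passed agreed closely, between −0.91 and −0.80 at 18 h, while its dim one, with signals between 1.30 and 15.3, had 3.26. RAD50 had signals of 660.0, 583, 523 and 462, a small stepwise decrease to a log2 ratio of −0.52 at 18 h, against −0.32 and 0.01 in its other probe sets. RAD51AP1, which helps strands to pair during recombination, stayed level up to 12 h and was lower at 18 h, with signals of 1019, 1053, 972 and 619 and a log2 ratio of −0.72 at 18 h.

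RAD51C, XRCC2 and XRCC3, related proteins that support strand exchange, were all below 0 at 18 h. RAD51C had log2 ratios of −0.68 and −0.98 at 18 h in its pair of probe sets. XRCC3 had signals of 45.8, 34.8, 19.0 and 17.25 at 0, 6, 12 and 18 h, a log2 ratio of −1.41 at 18 h from a probe set whose mean signal of 26.9 was below the lowest kept. XRCC2 had signals of 39.7, 85.3, 40.5 and 23.9, highest at 6 h (log2 ratio 1.10) and lowest at 18 h (−0.73). Its 1 probe set was dim, with a mean signal of 42.6. For both genes the signals were near the limit of what was kept.

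BLM and RAD54B, singled out after their values were seen, also had their highest signals at 6 h. BLM, the helicase that takes apart recombination intermediates, had signals of 312, 552, 346.5 and 247 at 0, 6, 12 and 18 h. RAD54B, a motor protein of recombination that moves along DNA, had signals of 269.6, 422, 349 and 236. Their log2 ratios were 0.82 and 0.65 at 6 h and −0.34 and −0.19 at 18 h, so both were higher at 6 h by more than the SD between probe sets and near their 0 h level at 18 h. A pair of RAD54B probe sets shared with FSBP had 1.02 and 0.12 at 18 h. The related motor RAD54L had log2 ratios of 0.48, −0.97 and −0.59 at 6, 12 and 18 h.

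The 12 measured genes of the Fanconi anaemia pathway had medians of 0.12, −0.24 and −0.63 at 6, 12 and 18 h. At 18 h 3 of them, PALB2, BRIP1 and USP1, were below −1 (25.0%, against 18.8% of all genes and 15.8% of those that passed). With median centring none of these was below −1 (−0.77, −0.68 and −0.59). PALB2, which joins BRCA1 to BRCA2, had signals of 437, 307, 231 and 187 at 0, 6, 12 and 18 h. It was the member with the lowest log2 ratio at 6 h, −0.51, and stood at −1.22 at 18 h. BRIP1, a helicase that binds BRCA1, had signals of 253, 308, 197 and 116, above 0 h at 6 h and below it at 18 h (log2 ratio −1.13). Its second probe set, too dim to pass, had signals of 19.9, 38.6, 23.5 and 30.1 and a log2 ratio of 0.59. USP1, which takes ubiquitin off FANCD2 and FANCI, had signals of 2806, 2636, 2031 and 1361, and both of its probe sets were below −1 at 18 h (−1.04 and −1.16).

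UBE2T, the enzyme that brings ubiquitin to the pathway, had signals of 1304, 1480, 1222 and 800.0 at 0, 6, 12 and 18 h. FANCL, the ligase that passes it on, had signals of 843.5, 1079, 605 and 531. Both were highest at 6 h, and their log2 ratios at 18 h were −0.71 and −0.67. FANCI, 1 of the proteins that receive the ubiquitin, had signals of 1196, 1284, 1018 and 939.7 and log2 ratios between −0.35 and −0.25 in its 3 probe sets at 18 h. The differences in log2 ratio between these genes at 18 h were under the SD between probe sets.

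The core complex members FANCB, FANCC, FANCE, FANCF, FANCG and FANCM ran from −0.95 to −0.04 at 18 h. FANCC had signals of 87.5, 94.3, 84.2 and 45.2 at 0, 6, 12 and 18 h, level up to 12 h and low at 18 h alone (log2 ratio −0.95), and 2 further probe sets with signals under 18 had −0.59 and −4.36. FANCB had signals of 88.2, 129, 54.6 and 61.9, highest at 6 h (0.55) and below 0 h at 18 h (−0.51), with −0.94 and −1.26 at 18 h in its other probe sets that passed. FANCF, an adaptor within the complex, stayed at log2 ratios between −0.18 and 0.03 at every time in both of its probe sets. FANCM, the motor that anchors the complex to DNA, had signals of 71.1, 83.6, 64.2 and 69.0, and its pair of probe sets that passed stood at −0.04 and 0.01 at 18 h, whereas those too dim to pass had −0.92 or lower. FANCG and FANCE had log2 ratios of −0.60 and −0.41 at 18 h.

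**Figure D3:**
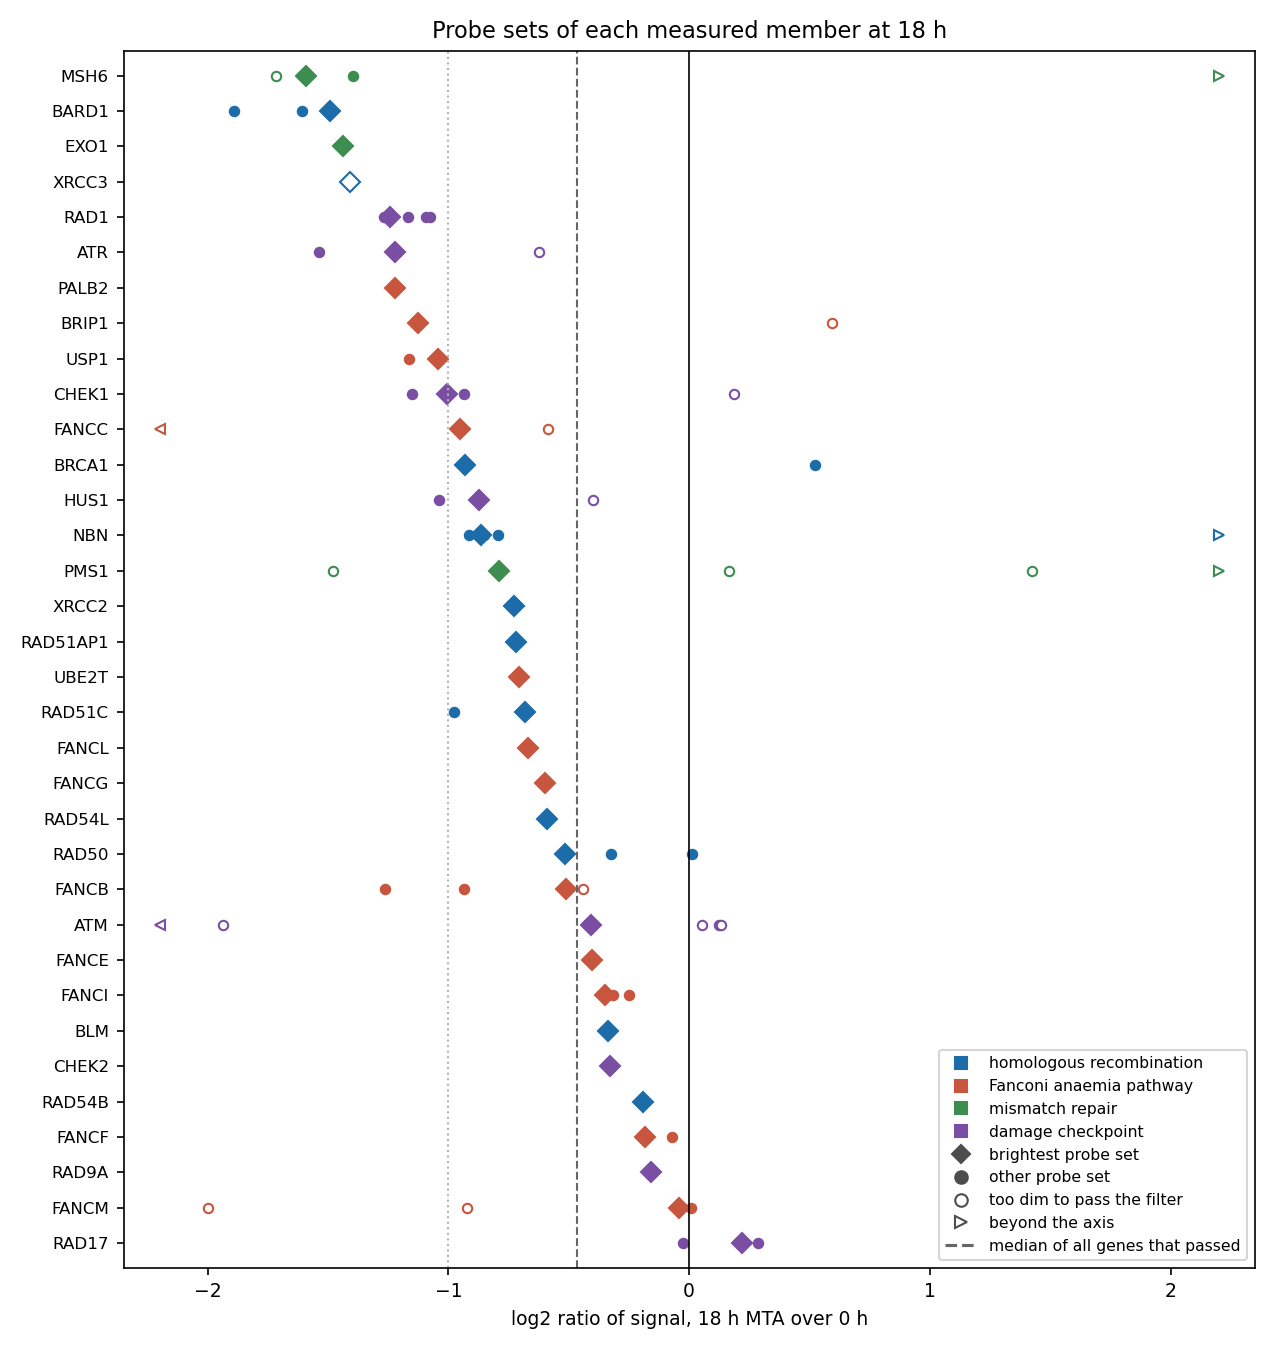
Log2 ratio of signal at 18 h of MTA to that at 0 h (horizontal axis) for all 82 probe sets of the 34 measured members, 1 member per row, lowest on top, coloured by role. Diamonds are the brightest probe set, filled symbols passed the filter, open ones did not, triangles lie beyond the axis, and the lines mark −1 (dotted), the median of all genes that passed, −0.47 (dashed), and 0. Probe sets that passed lie close together for most members, with BRCA1 (−0.93 and 0.52) the widest.

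Of the 4 measured genes whose E2F letters are printed above, MSH6 and EXO1 were below −1 at 18 h, and FANCC and XRCC2 stood at −0.95 and −0.73. BRIP1 and CHEK1, shown with CCAAT letters, were below −1, and so were BARD1, ATR and RAD1, whose windows held none of the letters searched. FANCB and FANCG, also without these letters, stood at −0.51 and −0.60. Among members with CCAAT letters were also MSH6 (−1.59), FANCM (−0.04) and RAD17 (0.22), so CCAAT went with ratios at both ends of the members' range. The genes named here are examples, and a link between letters and ratios was not tested.

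Probe sets of the same member differed less where they passed the filter. At 18 h the log2 ratio of 28 further probe sets that passed differed from that of the member's brightest one by a median of 0.15 and by 1.45 at most, and that of 20 too dim to pass by a median of 1.08 and by 6.91 at most. Of the 82 probe sets of the 34 members, 61 passed, and 17 members had 2 or more that passed. The range of the log2 ratio at 18 h within such a member had a median of 0.22, ran from 0.05 to 1.45 and was under 0.5 in 13 of the 17. The other 16 members that passed rest on 1 probe set, EXO1, PALB2 and BRIP1 among them.

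Other repair pathways were read from 4 further lists of 89 genes. Of these, 83 were measured, with a median of −0.54 at 18 h, 10 (12.1%) below −1 and 2 above 1, against 18.8% and 14.1% of all genes. End joining, which seals breaks without a template, had a median of −0.43 over 10 genes with none below −1, and POLM, too dim to pass, was above 1. Base excision and single-strand break repair had a median of −0.68 over 18 genes. In that list UNG, the glycosylase that removes uracil from DNA, had signals of 2146, 1501, 671 and 421 at 0, 6, 12 and 18 h. Its log2 ratio was −2.35 at 18 h, lower than any member. NEIL2, a glycosylase for oxidised bases, had −1.05, from a dim signal of 29.3 at 18 h against 60.8 at 0 h. Nucleotide excision repair had a median of −0.56 over 18 genes, with DDB1, a subunit of the complex that finds ultraviolet damage, below −1 (−1.04).

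The fourth list held 37 further measured genes, mostly of recombination, cross-link repair and the checkpoint, with MSH3 and MLH3 of mismatch repair among them. It had a median of −0.54, with 7 below −1 (18.9%, against 18.8% of all genes) and 1 above 1. The lowest were RAD51D (−1.80), TIPIN (−1.66), a fork protection factor, the topoisomerase TOP3A (−1.51), which works with BLM, and CLSPN (−1.49), the adaptor between ATR and CHEK1. RAD51D, TOP3A and CLSPN were dim, with signals of 77.6, 57.0 and 65.4 at 0 h. At 18 h they had 22.3, 20.1 and 23.3, under the lowest mean signal kept (33.97). RAD52, an annealing protein, was at 1.30 from signals of 20.9, 44.9, 30.4 and 51.4 at 0, 6, 12 and 18 h. TIPIN had signals of 960, 1047, 490 and 303, near its 0 h level at 6 h and lower at 12 and 18 h.

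**Figure D4:**
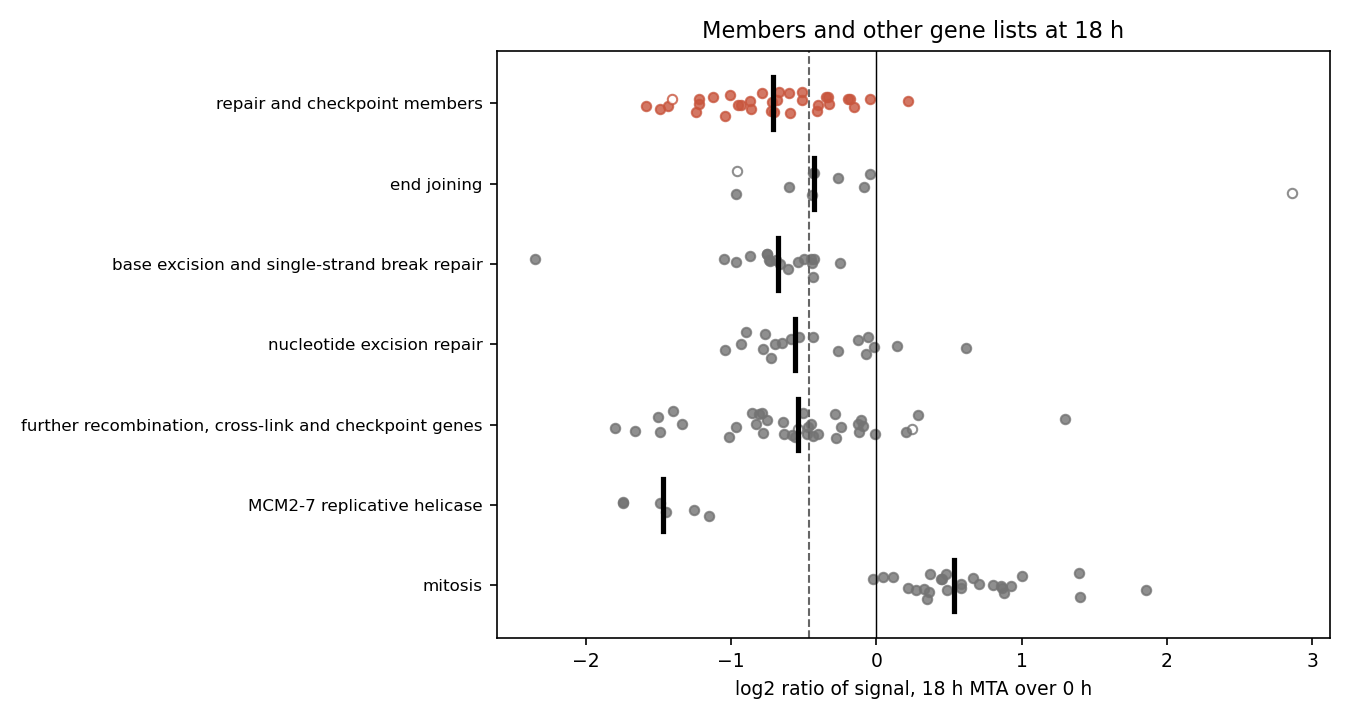
Log2 ratio of signal at 18 h of MTA to that at 0 h (horizontal axis) for the 34 measured members (top) and for other lists, 1 point per gene, open where the gene was too dim to pass the filter. Vertical bars are medians and the dashed line is the median of all genes that passed, −0.47. The members' median (−0.71) lies between those of the replicative helicase (−1.47) and of mitosis (0.53), as does that of all genes that passed.

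The members were set beside a pair of cell-cycle lists. With the deposited scaling, all 6 subunits of the replicative helicase MCM2 to MCM7, which unwinds DNA in S phase, were below −1 at 18 h. Of the 26 mitosis genes, which act after the DNA has been copied, none was below −1 and 4 were above 1. Among the genes that passed it was 15.8% and 3.15%. The helicase had medians of 0.04, −0.66 and −1.47 at 6, 12 and 18 h, and mitosis 0.46, 0.36 and 0.53. The members, at 0.14, −0.37 and −0.71, lay between these at each time. So did the genes that passed, at 0.11, −0.28 and −0.47, so this place was not particular to the members. Whether the share of cells in S phase moved with these values was not tested, and a test of the differences between the lists was not possible with 1 array per time.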

How the data were processed

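Gene expression was measured in RCM-1 cells on 4 arrays, 1 per time of MTA. The values the authors deposited are intensities, namely linear MAS5 signals of each probe set. The submitters' processing notes name Affymetrix Expression Console, and the array work was delegated to the manufacturer. Neither the software version nor the target of the scaling is given in the sources used here, and the median signal was 16.7, 20.8, 16.6 and 16.4 at 0, 6, 12 and 18 h, so the arrays were compared with the scaling as deposited.

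The 62 control probe sets were set aside. Of 54613 others, 41091 had 1 gene symbol, 1801 several and 11721 none in the platform annotation, with symbols updated through the RefSeq gene table of GRCh38.p14, and only those with 1 symbol were named. Probe sets were ranked by mean log2 signal, and from the top as many were kept as the study calls detected, the lowest mean signal kept being 33.97. A gene was represented by its brightest probe set, and log2 ratios to 0 h were taken without a pseudocount. Without replicates no test was made. The calculation was tested on simulated data.

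The members and the lists were chosen with earlier results of these data known. Signals at all times were given for members below −1 or above 0.5 at 18 h, members whose probe sets differed by over 1, the 4 brightest members of each role, and BLM, RAD54B, XRCC2, FANCB, HUS1 and RAD9A, which were added after their values were seen. Of other lists, at most 4 genes in each direction beyond 1 were named, and MSH3 and MLH3 as further mismatch repair genes. Alternatives were 5 other scalings, a pseudocount of 16, other probe sets of a gene, stricter filters (10000 probe sets) and thresholds of 1.5 and 2. Calculations ran in Python 3.11.15 (NumPy 2.4.6, pandas 2.3.3) and figures in matplotlib 3.10.9. Dome counts, RT-PCR and immunoblots were not analysed here.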

Additional observations from a re-analysis of the deposited data

Results flagged for a closer look

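For 3 of 34 members (8.82%) the log2 ratio was above 0.5 at 6 h and below −0.5 at 18 h, a difference between times that was not tested. The same was seen for 3.42% of all genes and 0.876% of those that passed. EXO1 had a log2 ratio to 0 h of 0.73 at 6 h and −1.44 at 18 h, XRCC2 1.10 and −0.73, and FANCB 0.55 and −0.51. Each MTA time is 1 array, the ratios share the array of 0 h, and the median over the genes that passed was 0.11 at 6 h and −0.47 at 18 h. EXO1 and XRCC2 rest on 1 probe set each, XRCC2 on a dim one, and FANCB had 1.12 and 0.11 at 6 h and −0.94 and −1.26 at 18 h in its other probe sets that passed.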

How the results depend on the processing

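The count of members below −1 at 18 h (10 of 34) was 2 with median centring, 2 with quantile normalization, 1 with division by the 2% trimmed mean and 4 with scaling to the poly-A controls, and between 8 and 11 with the hybridization controls, a pseudocount of 16, other probe sets and the filters. The filters left 33 and 21 members, with 9 below −1 under each, and a median of −0.87 at 18 h over the 21. Probe sets with several symbols brought the members to 35, with 11 below −1. With a threshold of −1.5 the count of the 34 was 1 and with −2 it was 0. The count at 12 h (1) was 0 with median centring, the trimmed mean, the pseudocount or either filter, 2 with the poly-A controls and 6 with the second brightest probe set. The count below −1.5 at 18 h (1) was 0 with median centring, quantile normalization, the trimmed mean or the poly-A controls, and 2 with the mean of all probe sets or the second brightest one. The count above 1 at 18 h (0) was 1 with the mean of all probe sets. The trimmed mean moved the median at 18 h to −0.20 for all members, −0.20 for homologous recombination, −0.12 for the Fanconi anaemia pathway, −0.92 for mismatch repair and −0.12 for the checkpoint. The Fanconi median was −0.14 with quantile normalization, and that of mismatch repair −0.53 with the mean of all probe sets. BRIP1 turned to 0.59 with its second brightest probe set, which was too dim to pass. Of 394 values of single members under the alternatives, 328 differed from the value given by less than the SD between probe sets. Many of these could not differ, because a filter leaves a member's value as it is and members with 1 probe set have no other. Scaling by 1 number per array moves all members alike. The count of 328 is therefore no measure of robustness. The sign turned in 40 of the 394 values, counting those of the 11 members whose sign turned with a scaling. It also turned for BRCA1 (0.52), ATM (0.12) and RAD17 (−0.02) with the second brightest probe set. For PMS1 (1.09) it turned with the mean of all probe sets. BRIP1 was the 1 among the members with a turned sign that was beyond 1 as given. No member was below −1 under every scaling. The cause of these shifts was not tested. Dim probe sets and the single array per time limit the precision. No paired analysis was possible because each time has 1 array and the result comes from no test.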
